A study of Homo sapiens with 4 samples.

Results

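RUNX1, RUNX2, RUNX3 and CBFB encode the parts of core-binding factor, a heterodimeric transcription factor, and were chosen by gene name: all 4 members are present among the 11597 genes of the deposited comparison. The comparison was made in MOLM13, a human acute myeloid leukaemia line that carries a KMT2A fusion and an activated FLT3 receptor. One group of 2 libraries came from cells transduced with a lentivirus for the BTG2 cDNA (genotype label BTG2 OE), and the other group of 2 libraries from cells given the empty vector (genotype label WT). Both groups were spin-infected with the same vector backbone, in which the EF1α promoter drives the cDNA together with puromycin resistance and ZsGreen, and were collected 3 days later. BTG2 is an adaptor that brings the CCR4-NOT deadenylase to messenger RNA, and the design text states its effect on mRNA stability as the question. Both groups had polybrene at 5 µg/mL and a spin of 60 min at 32 °C and 1500 RCF. The labels give no age or treatment beyond these, and both groups are the same line, so donors do not vary.

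The RUNX proteins bind DNA through the Runt domain, and CBFB, which does not touch DNA itself, binds that domain and raises its affinity and stability. RUNX1 is needed for the emergence of blood stem cells and for megakaryocyte and lymphoid development, and both RUNX1 and CBFB are recurrent targets of mutation and of gene fusions in acute myeloid leukaemia. RUNX2 is best known as the master regulator of bone formation, and RUNX3 for T cell, natural killer cell and neuronal programmes. Each RUNX gene has a distal and a proximal promoter, which give proteins with different N termini. For RUNX1 the distal promoter yields the isoform RUNX1C and the proximal one RUNX1A and RUNX1B. The series title speaks of an alternative isoform of a transcription factor, and the values here are per gene, so isoforms of RUNX1 are not separated.

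The sequences below show a feature that the RUNX genes share at their distal starts, a pair of RUNX recognition sites. The motif searched was ACCACA, with TGTGGT as its other strand. Only these letters were searched, so RUNX sites spelled otherwise are not counted here or below. In each line the capitals mark the motif, and all lines read 5′ to 3′ along the gene. The RUNX1 line is from the 5′ UTR of the distal transcript RUNX1-201 (GENCODE release 29, hg38, minus strand, chr21:35049259-35049288). The RUNX2 line is from the RefSeq promoter table (GRCh38.p14, plus strand, chr6:45328338-45328367) and the RUNX3 line from the same table (minus strand, chr1:24965120-24965149).
RUNX1: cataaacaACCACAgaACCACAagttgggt
RUNX2: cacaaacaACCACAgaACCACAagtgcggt
RUNX3: gtccctcaACCACAgaACCACAaggccagg

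In all 3 RUNX genes the motif occurs as a pair on 1 strand whose starts lie 8 bases apart, within the same core of 14 bases. Of 35116 promoter windows of 300 bases in the RefSeq table, which run from 250 bases before the start, 4591 (13.1%) hold the motif at least once on either strand. A pair with this spacing occurs in 4 of them (0.0114%), among them the distal windows of RUNX2 and RUNX3. Within the first 400 bases of annotated transcripts, the exact core was found in transcripts of 2 genes, RUNX1 and RUNX2, out of 58676 genes. It was present in 4 of 17 RUNX1 transcripts and 5 of 13 RUNX2 transcripts. These matches describe letters and do not show that a factor binds there.

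The distal windows of RUNX2 and RUNX3 are shown whole, since they place the pair relative to the start. The RUNX2 window (GRCh38.p14, plus strand, chr6:45328080-45328379) holds 4 motifs, 2 of them before the start, and its pair lies just after the start.
RUNX2 distal: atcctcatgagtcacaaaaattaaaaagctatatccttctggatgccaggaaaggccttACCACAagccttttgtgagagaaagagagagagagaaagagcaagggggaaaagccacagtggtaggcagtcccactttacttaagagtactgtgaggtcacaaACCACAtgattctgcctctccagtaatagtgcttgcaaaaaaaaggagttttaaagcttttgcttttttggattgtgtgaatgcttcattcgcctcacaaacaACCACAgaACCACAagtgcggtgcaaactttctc
The RUNX3 window (GRCh38.p14, minus strand, chr1:24964961-24965260) holds 2 motifs, which form the pair, 131 and 123 bases before the start.
RUNX3 distal: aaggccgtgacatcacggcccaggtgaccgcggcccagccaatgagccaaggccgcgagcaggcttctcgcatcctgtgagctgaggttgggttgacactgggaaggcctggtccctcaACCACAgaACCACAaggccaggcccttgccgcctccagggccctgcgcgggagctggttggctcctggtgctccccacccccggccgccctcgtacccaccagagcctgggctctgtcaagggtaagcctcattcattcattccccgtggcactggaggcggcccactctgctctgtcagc
The window of RUNX1 in the table is the proximal one (GRCh38.p14, minus strand, chr21:34888650-34888949). Its GC content is 72.0% and it holds 0 matches to the motif, as do the proximal windows of RUNX2 and RUNX3.
RUNX1 proximal: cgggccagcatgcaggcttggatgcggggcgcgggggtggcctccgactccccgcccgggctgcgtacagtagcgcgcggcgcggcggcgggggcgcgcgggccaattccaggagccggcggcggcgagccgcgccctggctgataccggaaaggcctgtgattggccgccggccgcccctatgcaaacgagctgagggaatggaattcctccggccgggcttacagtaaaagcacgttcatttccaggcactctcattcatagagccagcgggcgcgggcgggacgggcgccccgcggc

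With BTG2, RUNX1 rose, and RUNX2, RUNX3 and CBFB did not pass the test. The unit of level is the authors' mean normalized count over all libraries, and a gene was called when the authors' adjusted p was under 0.05. Over all listed genes 8.11% were called, 3.64% higher and 4.47% lower, so 1 of 4 members called higher is a count too small to set against that share. Each error is the authors' standard error (SE), and 95% intervals were computed from it. No values of single libraries were analysed, so the spread between libraries, the direction in each library and the overlap of the groups cannot be given. In the cultures, more RNA per cell and a different mix of cells cannot be told apart.

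RUNX1 (ENSG00000159216.19), the DNA-binding subunit that is most studied in leukaemia, had in the authors' deposited table a mean count of 822 and a log2 fold change of 0.42 (SE 0.10, adjusted p = 0.00156). This is a 1.34-fold higher level, with a 95% interval from 1.16 to 1.54. RUNX1 ranked 424 by the size of its test statistic and 1168 by its log2 fold change among the 11597 genes. Among the 2900 genes with the highest mean counts (376 or more), where RUNX1 and CBFB both stand, 7.9% of genes were called higher and 12.7% lower.

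CBFB (ENSG00000067955.15), the common partner subunit, had in the authors' deposited table a mean count of 633 and a log2 fold change of -0.04 (SE 0.09, adjusted p = 0.912). Its 95% interval runs from 0.853-fold to 1.10-fold. A change of 0.27 on the log2 scale would have been needed for CBFB to pass, against 0.30 for RUNX1, so both were measured with like precision. A rise of CBFB as large as the RUNX1 estimate lies outside its interval.

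RUNX2 (ENSG00000124813.23), the bone regulator, had in the authors' deposited table a mean count of 101 and a log2 fold change of -0.30 (SE 0.24, adjusted p = 0.618). Its interval, from 0.584-fold to 1.13-fold, covers both a clear fall and a small rise. RUNX3 (ENSG00000020633.19), the lymphoid family member, had in the authors' deposited table a mean count of 101 and a log2 fold change of -0.12 (SE 0.24, adjusted p = 0.901). Its interval reaches from 0.667-fold to 1.26-fold. To pass, RUNX2 would have needed a log2 change of 0.70 and RUNX3 one of 0.68, which is more than the rise of RUNX1. Among the 2899 genes with mean counts from 55.1 to 151, where both stand, 1.48% of genes were called higher and 1.24% lower.

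**Figure D1:**
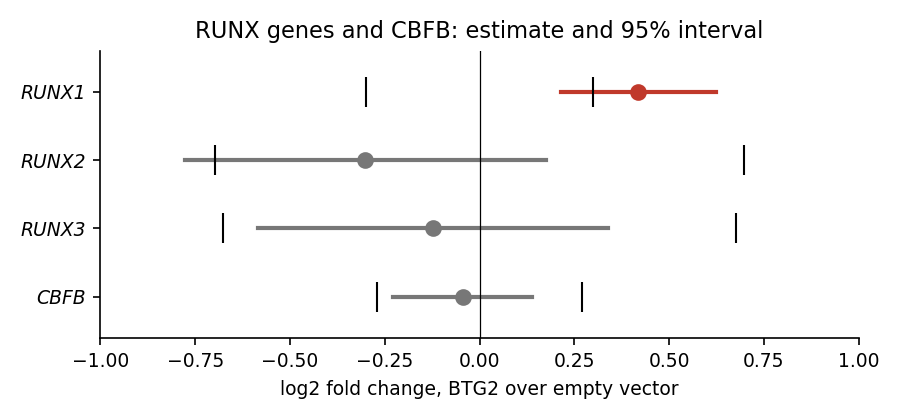
Log2 fold change of each member, BTG2 over empty vector (x axis, log2 scale), as a point with its 95% interval from the authors' SE; red marks a called gene and grey the others, and the short black bars mark the change needed to pass the test. RUNX1 at 0.42 lies beyond its bar at 0.30, while the intervals of RUNX2, RUNX3 and CBFB all include 0.

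**Figure D2:**
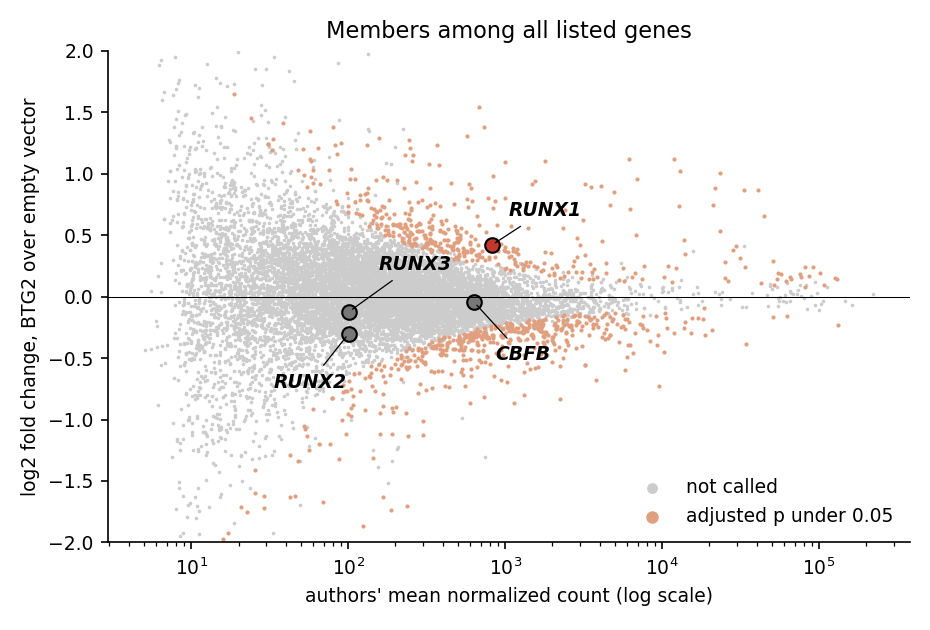
Log2 fold change (y axis, shown from -2 to 2, with genes beyond that range not drawn) against the authors' mean normalized count (x axis, log scale) for all listed genes, with called genes in orange, the others in pale grey, and the 4 members as large labelled points. RUNX1 (mean count 822) lies at the upper edge of the cloud, and CBFB (633) and the rarer RUNX2 and RUNX3 (both 101) lie inside it.

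Differences between members were set out for all 6 pairs, with the errors of both genes taken as independent and with no p-value, since the members were chosen with earlier results known. RUNX1 stood above CBFB by 0.46 on the log2 scale, with a 95% interval from 0.19 to 0.74. Above RUNX2 it stood by 0.72 (0.20 to 1.24) and above RUNX3 by 0.54 (0.04 to 1.05). These 3 intervals exclude 0. With SEs 1.5 times as large, only the difference from CBFB still does. Among the other pairs, RUNX2 minus RUNX3 was -0.18 (-0.84 to 0.48), RUNX2 minus CBFB -0.26 (-0.77 to 0.25) and RUNX3 minus CBFB -0.08 (-0.57 to 0.42), so these 3 did not differ beyond their errors and their intervals also allow differences as large as the rise of RUNX1.

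Levels were compared between members only per length of transcript, as mean count per kb of the annotated transcript with the longest coding sequence. On this scale CBFB stood highest at 213, followed by RUNX1 at 132, RUNX2 at 44.6 and RUNX3 at 23.3. The RUNX2 value rests on a transcript of 2256 bases with a short 3′ UTR, and with its longest transcript of 5698 bases it is 17.7, below RUNX3. The order of RUNX2 and RUNX3 therefore turns on the transcript taken, whereas CBFB and RUNX1 stood above both with either choice. Whether counts grow with transcript length depends on the kind of read: the labels' protocols describe short paired reads and the design text long ones.

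The genes nearest to each member in mean count and log2 fold change were listed by distance in these 2 measures, each scaled by its SD over all genes. With 1 comparison of pooled values this likeness holds over no samples. Nearest to RUNX1 were ARGLU1 (log2 fold change 0.39, mean count 813), HNRNPK (0.39, 789) and MBD3 (0.38, 843) in the authors' deposited table, and each passed the test. NAF1, TAF1B and ZNF267 were nearest to RUNX2, SIAE, ADORA2B and OSGEP to RUNX3, and FBXO7, NELFB and TBRG4 to CBFB, and none of these 9 passed in the authors' deposited table.

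The messenger RNAs of the members differ in features that bear on decay. Many unstable transcripts carry AUUUA pentamers in the 3′ UTR, which AU-rich element-binding proteins recognise. The RUNX1 transcript RUNX1-201 has a 3′ UTR of 4334 bases with 18 AUUUA, longer than 91.7% of 10449 coding genes, whose median is 982 bases with 2 AUUUA. CBFB-202 has a 3′ UTR of 2244 bases with 7 AUUUA. RUNX3-203 has 2611 bases with 3 AUUUA. RUNX2 has 627 bases with 1 AUUUA in RUNX2-210 and 3774 bases with 11 in its longest transcript RUNX2-204. Per kb this is 4.15 AUUUA for RUNX1, 3.12 for CBFB, 1.59 for RUNX2 and 1.15 for RUNX3, against a median of 1.53. The RUNX2 and CBFB values turn on the transcript taken. They are 2.91 with RUNX2-204 and 3.87 with CBFB-201, the longest transcript of each. RUNX1, RUNX3 and CBFB also have shorter annotated 3′ UTRs, of 389 bases in RUNX1-203, 349 in RUNX1-205, 1093 in RUNX3-202 and 79 in CBFB-203. Values per gene do not tell which transcript is in use. The nonamer UUAUUUAUU, a stronger form of the element held by 7.76% of these genes, occurs 0 times in each of the 4.

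The stretches of 30 bases with most AUUUA are shown for RUNX1 and CBFB, the better covered members, of which one rose and the other did not pass. Capitals mark the pentamers. Positions count from the first base after the stop codon, 762 to 791 for RUNX1-201 and 305 to 334 for CBFB-202, and each stretch holds 2.
RUNX1: uAUUUAuguaucuugauguucagacAUUUA
CBFB: uuuaAUUUAaaaguucaugucAUUUAaaaa

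The members lie on 4 chromosomes in GENCODE release 29 on hg38. RUNX1 covers chr21:34787801-36004667 on the minus strand, with 17 annotated transcripts. Of its 5 complete coding transcripts, 2 begin at the distal start and encode 480 residues, and 3 begin at proximal starts about 161 kb away and encode 453, 389 and 250 residues. RUNX2 covers chr6:45328157-45664349 on the plus strand, RUNX3 chr1:24899511-24965121 on the minus strand and CBFB chr16:67029116-67101058 on the plus strand. RUNX2 overlaps SUPT3H on the opposite strand, and strand use in counting is not stated in the labels or the file, so reads of the 2 genes may not be separated. In the authors' deposited table SUPT3H had a log2 fold change of 0.56 (SE 0.36, adjusted p = 0.464).

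The share of genes called around the members lay near that of the whole table. Within 1 Mb of the members 77 genes are listed, of which 1 was called higher and 4 lower (6.49%), against 8.11% of all listed genes. Within 1 Mb of RUNX1 the table lists 15 other genes, of which 0 were called higher and 0 lower, with a median log2 fold change of -0.13. Its nearest listed neighbours are SETD4, upstream, at 0.21 (SE 0.31), and CLIC6, downstream, at -0.52 (SE 0.64), by the authors' deposited table. Upstream distances run from the annotated gene edge at 36004667, far beyond the distal start of RUNX1-201 at 35049344. At the share over all genes, 15 genes are too few to read anything from a count of 0. Near RUNX2 the 2 listed genes, the overlapping SUPT3H and the upstream CDC5L, were not called. Near RUNX3, 1 of 18 was called, STMN1, which encodes a microtubule-destabilising protein and which the authors' deposited table gives at -0.17 (SE 0.05, adjusted p = 0.0277). The nearest downstream and upstream genes, CLIC4 (-0.11) and SYF2 (0.11), were not called in the authors' deposited table.

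Near CBFB 42 genes are listed, of which 1 was higher and 3 lower. The nearest downstream gene, PHAF1 (-0.16), and the nearest upstream genes, CES2 (0.33) and AC009084.3 (0.56), which end at the same base, were not called in the authors' deposited table. The authors' deposited table calls NUTF2, a nuclear transport factor, higher at 0.22 (SE 0.08, adjusted p = 0.0489), and NAE1, part of the NEDD8-activating enzyme, lower at -0.38 (SE 0.09, adjusted p = 0.00121). Also lower in the authors' deposited table were CKLF, a chemokine-like factor, at -0.48 (SE 0.08, adjusted p = 2.09e-07), and the immunoproteasome subunit PSMB10 at -0.19 (SE 0.05, adjusted p = 0.00568).

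**Figure D3:**
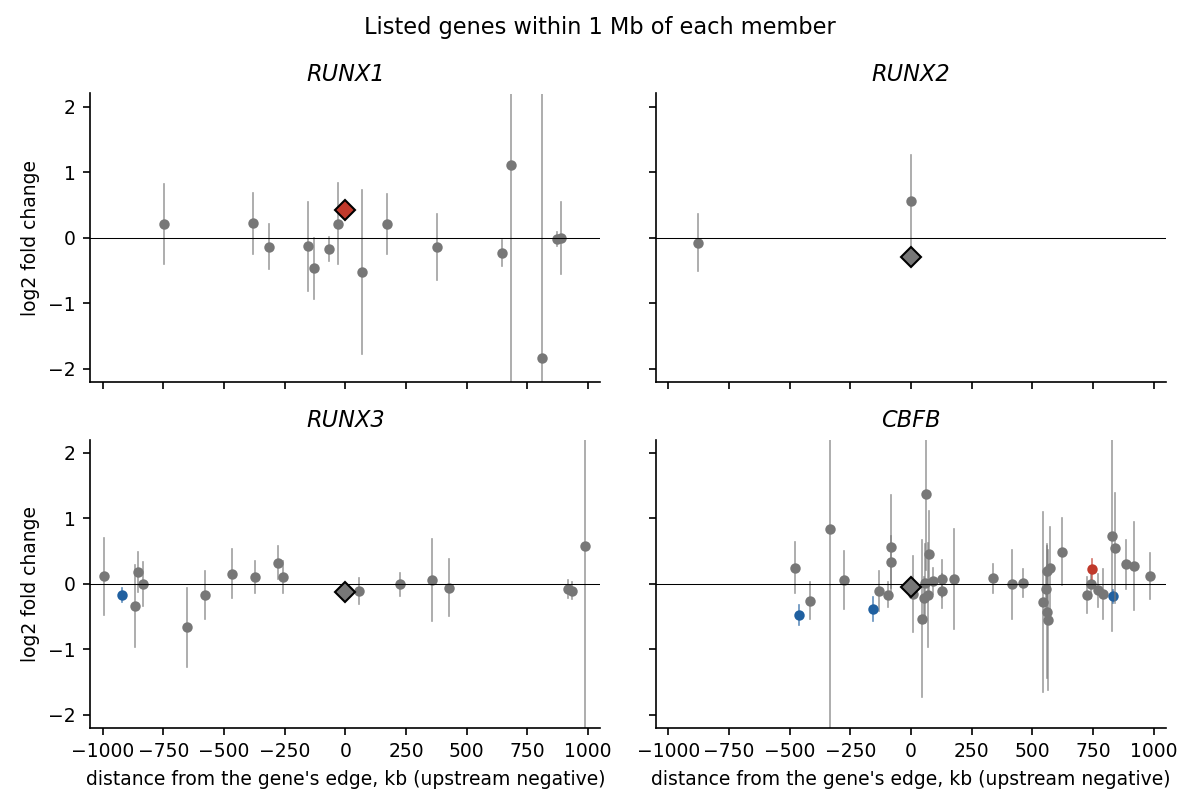
Log2 fold change (y axis, shown from -2.2 to 2.2) of the listed genes within 1 Mb of each member against their distance from the member's edge in kb (x axis, upstream negative), with 95% intervals from the authors' SE, some of which run past the axis. Diamonds are the members, red marks called higher, blue called lower and grey not called: 0 of 15 genes near RUNX1 are coloured, and 4 of 42 near CBFB.

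Core-binding factor represses through corepressors of the TLE, ETO, SIN3A and polycomb families, among others. Of the 17 such genes reported here 16 are listed, of which 2 fell (12.5% called, against 8.11% of all genes), with a median log2 fold change of -0.09 against 0.00 for all genes. Over all listed genes 4.47% were called lower. Both are among the genes with the highest mean counts, of which 12.7% were called lower. The list also holds rarer genes, so its 12.5% cannot be set against that share. With 2 calls nothing is read from the count. HDAC2, a histone deacetylase of these complexes, fell in the authors' deposited table, at -0.25 (SE 0.06, adjusted p = 0.000223). TLE5, a short Groucho-family protein, fell in the authors' deposited table, at -0.23 (SE 0.07, adjusted p = 0.0135). The ETO relatives CBFA2T3 (-0.06, SE 0.19) and CBFA2T2 (-0.80, SE 2.74) were not called in the authors' deposited table, and the latter value is too imprecise to place.

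Coactivators and enzymes that modify RUNX proteins did not pass the test, with 1 exception. All 16 are listed, with 0 called higher and 1 lower and a median log2 fold change of -0.02. At 6.25% called, the list lay near the 8.11% of all listed genes. The lower gene was HIPK2, a kinase that phosphorylates RUNX1. For HIPK2 the authors' deposited table gives a fitted value of -8.72 (SE 1.49, adjusted p = 3.1e-07) at a mean count of 36.2. A fitted value of this size at so low a count does not measure a fold. The acetyltransferases EP300 (0.22, SE 0.13) and CREBBP (0.05, SE 0.19) and the methyltransferase PRMT1 (-0.02, SE 0.05) were not called in the authors' deposited table. KMT2A, whose fusion drives this line and which binds core-binding factor, stood in the authors' deposited table at -0.14 (SE 0.19, adjusted p = 0.846).

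Transcription factors that act beside RUNX1 at blood enhancers were called lower in 2 cases and higher in 0 of 14 listed, out of 17 named, with a median of -0.07. This is 14.3% called, against 8.11% of all listed genes, of which 4.47% were lower. Both called genes are again among those with the highest mean counts, of which 12.7% were lower. The list also holds rarer genes, so its share cannot be set against that one, and 2 calls are too few to read anything from. CEBPA, the granulocyte lineage factor, fell in the authors' deposited table, at -0.26 (SE 0.05, adjusted p = 2.02e-06). MYB, a progenitor factor, fell in the authors' deposited table, at -0.27 (SE 0.06, adjusted p = 0.000826). SPI1, the myeloid factor PU.1 that RUNX1 is known to control, stood in the authors' deposited table at -0.11 (SE 0.06, adjusted p = 0.301). Fusion partners of RUNX1 and CBFB were little represented, with ETV6 (0.05) and CBFA2T3 the 2 listed of 6 and 0 called in the authors' deposited table.

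Genes reported as RUNX1 or RUNX3 targets moved both ways. Of 27 named, 13 are listed, with 3 called higher and 2 lower (38.5% called, against 8.11% of all genes, and 7.9% higher and 12.7% lower among those with the highest mean counts) and a median log2 fold change of -0.11. The list was chosen with earlier results known, so nothing is read from this share. One of the 3 is BTG2 itself, which the authors' deposited table gives at 5.01 (SE 0.09). The vector supplies it, and without it the counts were 2 and 2. ELANE, the neutrophil elastase, rose in the authors' deposited table, at 0.23 (SE 0.03, adjusted p = 3.76e-09). PRTN3, proteinase 3 of the same granules, rose in the authors' deposited table, at 0.16 (SE 0.05, adjusted p = 0.0114). MPO, myeloperoxidase, fell in the authors' deposited table, at -1.14 (SE 0.15, adjusted p = 7.83e-12), and CEBPA is the other lower gene. These granule genes thus moved in opposite directions, while the cell cycle kinase CDK6 (0.22, SE 0.08, adjusted p = 0.0860) and the cyclin-dependent kinase inhibitor CDKN1A (-0.15, SE 0.05, adjusted p = 0.0605) lay just short of the limit in the authors' deposited table.

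**Figure D4:**
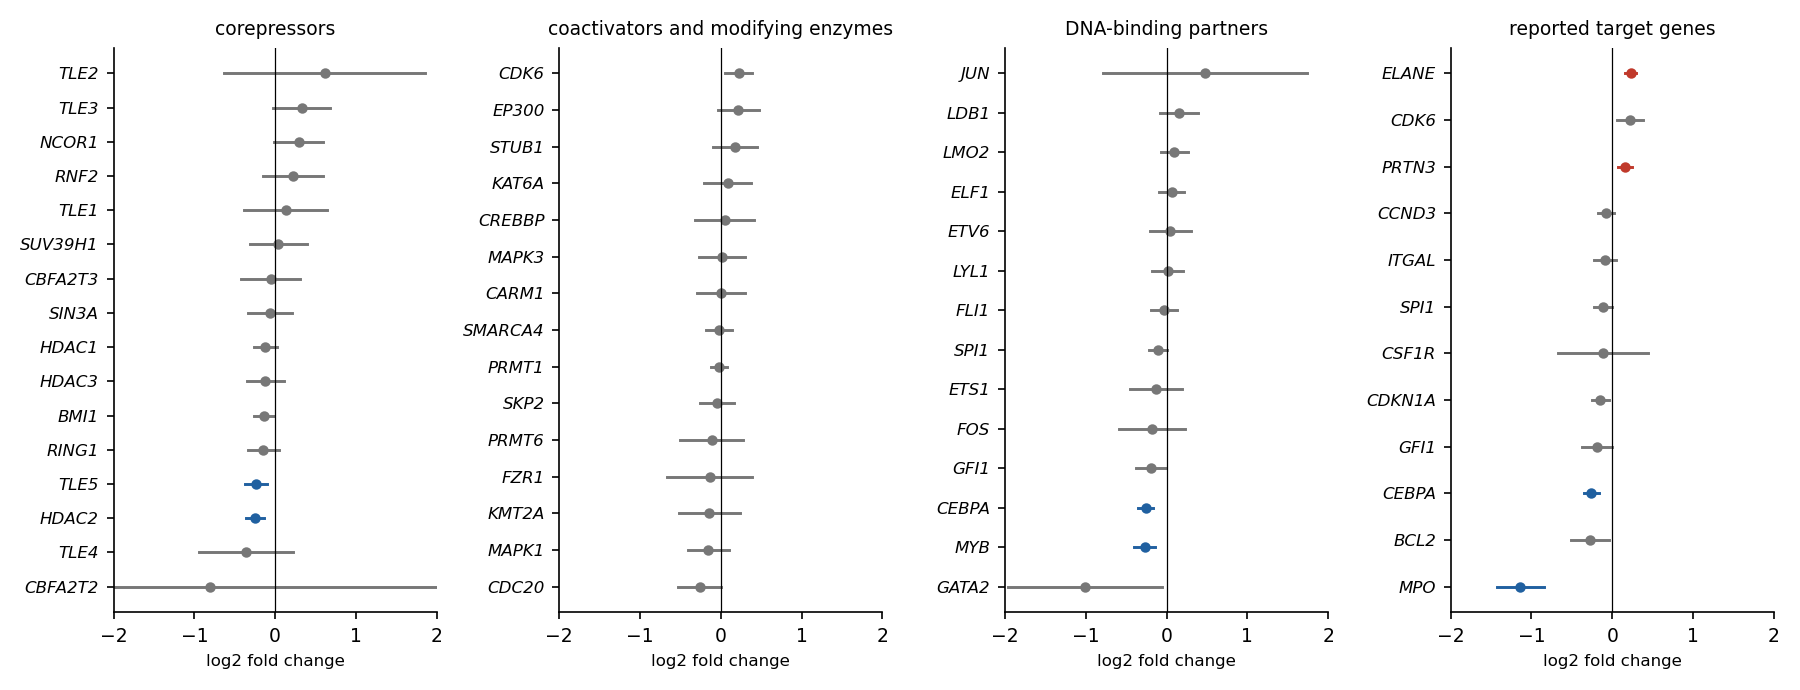
Log2 fold change (x axis, BTG2 over empty vector) with 95% intervals from the authors' SE for the listed genes of 4 groups around core-binding factor; red marks called higher, blue called lower and grey not called. BTG2 (5.01) and HIPK2 (-8.72) lie off the axis and are not drawn, and the interval of CBFA2T2 runs past both ends; most points lie near 0, and the called genes go both ways.

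Promoters of the listed target genes were searched for the same motif. The 9 such genes with a window from RefSeq have 15 windows, of which 3 (20%) hold it, against 13.1% of all windows. With 3 windows nothing is read from this share. These 3 belong to the macrophage colony-stimulating factor receptor gene CSF1R, the repressor gene GFI1 and the survival gene BCL2. The stretches around the motif are shown for these genes (GRCh38.p14, minus strand, chr5:150086608-150086637 for CSF1R, chr1:92486129-92486158 for GFI1 and chr18:63319740-63319769 for BCL2).
CSF1R: atttccaaactcTGTGGTtgccttgcctag
GFI1: ggaagtgaagctTGTGGTtttgggggctga
BCL2: acccctcgccgcACCACAcacagcgcgggc
The motif begins 71 bases before the start in CSF1R, 47 before it in GFI1 and 12 after it in BCL2. CSF1R stood at -0.11 (SE 0.28), GFI1 at -0.19 (SE 0.09) and BCL2 at -0.28 (SE 0.12), and none was called, in the authors' deposited table. Of the called genes of all the lists 6 have a window, BTG2 among them, and 0 of them hold the motif. Among all listed genes of these lists with a window, 5 of 44 hold it. Thus 6 genes are too few to read anything from a count of 0.

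The line's identity was checked by which marker genes are listed, and calls between the groups do not bear on it. Of 8 myeloid markers 7 are listed, of which 0 were called higher and 3 lower, MPO and CEBPA among them. All 5 KMT2A leukaemia markers are listed, of which 2 (40%) were called higher in the authors' deposited table. They are the homeobox gene HOXA9 at 0.53 (SE 0.17) and the receptor gene FLT3 at 0.23 (SE 0.07). Both lists were chosen with earlier results known, so nothing is read from these shares. No T cell, erythroid or megakaryocyte marker of 5 each is listed. Of 5 B cell markers PAX5 is listed and was called lower. It has in the authors' deposited table a fitted value of -9.28 (SE 1.47, adjusted p = 2.38e-08) at a mean count of 53.1, which as for HIPK2 does not measure a fold. Of 5 epithelial markers KRT8 and KRT18 are listed, neither called. The part of these genes in the values of the RUNX genes was not tested.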

How the data were processed

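Per the labels' protocols, poly(A) RNA came from 2 libraries a group. Per the submitters' processing notes, minimap2 and hg38 were used, with no stated role. The authors deposited 1 table, their comparison of both groups over 11597 genes. Per the file headers, its first value is a signal, the mean normalized count of a gene pooled over libraries. The authors deposited log2 fold changes and their SEs, a test statistic (a score equal to the fold change over its SE) and p-values with Benjamini-Hochberg adjusted p-values over all genes. Which program and annotation gave them is not stated in these sources. Depth per library is unknown, and the labels do not say whether replicates were separate cultures, so p-values may measure technical spread.

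The members and all gene lists were chosen with earlier results of these data known. A gene was called at the authors' adjusted p under 0.05, and no test was added. The planned count test was not needed, since the file holds no counts per library. Intervals at the 95% level, differences and alternatives were computed with Python 3.11.15, numpy 2.4.6, pandas 2.3.3 and scipy 1.17.1, and the calling steps were tested on simulated data. Positions and transcripts came from GENCODE release 29, which 11398 genes (98.3%) matched by Ensembl identifier, and promoter sequences from RefSeq (GRCh38.p14), where 3 of the 4 members matched by symbol. Transcripts were those with the longest complete coding sequence. Named genes are the members, in each list every called gene or the clearest when none was called, the nearest and all called neighbours, and the 3 genes most like each member; other list members were added as context after their values were seen. One further gene of the corepressor list is not reported here, and the counts and median of that list leave it out.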

Additional observations from a re-analysis of the deposited data

How the results depend on the processing

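The rise of RUNX1 passed under 6 of 8 alternatives, with log2 fold changes from 0.42 to 0.45 over all 8. It no longer passed when a minimum log2 fold change of 1 was asked (0.42) or when tested against 0.5 (0.42, with a Benjamini-Hochberg adjusted p at its ceiling), which its size by construction cannot meet. RUNX2, RUNX3 and CBFB stayed uncalled under each alternative that could be run, 7, 7 and 8 in turn. Recentring on abundant genes moves all values up by 0.03 and turns the calls over all genes from 422 higher and 518 lower to 500 and 433. With a limit of 0.01 the genes called near the members numbered 3, and with Benjamini-Yekutieli adjustment 2. Called coactivators numbered 2 at a limit of 0.1, 2 after recentring on abundant genes and 0 with the rarer genes below the median mean count left out. Asking for a change of at least 1 left 0 corepressors, 0 DNA-binding partners, 0 neighbours and 2 target genes, and testing against 0.5 left the same counts of 0, 0, 0 and 2. Benjamini-Yekutieli adjustment left 1 corepressor, as did the limit of 0.01. Mean count per kb was 113 for RUNX1, 17.7 for RUNX2 and 202 for CBFB with the longest transcript. The count of called target genes was 4 without BTG2, an alternative chosen after seeing the data. No paired analysis was possible because the table holds no values per library, and replicates could not be left out in turn for the same reason. The mean count limits RUNX2 and RUNX3 most, whose SEs are over 0.23.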

Other observations

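Calls were also counted across the whole table by the number of ACCACA motifs, on either strand, in the promoter window. Of 9026 listed genes with a window, 7853 hold no motif, and 3.03% of these were called higher and 4.48% lower. Of 1070 genes with 1 motif 3.46% were higher and 5.05% lower, and of 103 genes with 2 or more, 2 were higher and 4 lower. The median log2 fold changes were -0.01, 0.00 and 0.01 in turn. These are counts over genes that share the same libraries, given as a description with no test.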
